A study of Glycine max with 20 samples.

Results

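Glyma08g28370.1 (COL1a), Glyma18g51320.1 (COL1b), Glyma13g07030.1 (COL2a) and Glyma19g05170.1 (COL2b) are 4 CONSTANS-like gene models of soybean (Glycine max). They were found by identifier in a table of 66210 gene models, in which each identifier had 1 row, and by those identifiers they lie on chromosomes 8, 18, 13 and 19. Leaf RNA was sequenced in 20 libraries from 2 near-isogenic lines, sampled without aphids (0 h) and 4, 8, 24 and 48 h after infestation, and every combination of line and time had 2 biological replicates. Such lines are bred to differ at a chosen locus and to be alike elsewhere. The labels name the lines Rag2 (resistant to aphids) and rag2 (susceptible), whereas the count table names them BC and W. No source used here ties BC and W to Rag2 and rag2, so the lines are called BC and W, and no difference between them is given a direction relative to resistance. All libraries after 0 h came from infested plants, so time after infestation and the hour of sampling cannot be told apart. What a biological replicate was is not described further.

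CONSTANS-like proteins are regulators of transcription that carry B-box zinc fingers and a CCT domain. In Arabidopsis the founding member, CONSTANS, acts in leaves, where the circadian clock and light set its level over the day and it activates the florigen gene FLOWERING LOCUS T in long days. Soybean flowers in short days, and its COL1a and COL1b have been described as repressors of flowering in long days. COL1a and COL1b are duplicate copies of each other, and so are COL2a and COL2b. Names are not uniform for this family: the RefSeq table of the soybean genome calls a gene on chromosome 8 COL2A, with COL1a as a synonym, and a gene on chromosome 18 COL2B. None of the identifiers of the count table stands in that table, so names other than the 4 above, leaf markers and other daylength genes were not matched to rows.

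The pairs moved in opposite directions at 8 h, and on later days their libraries overlapped those of 0 h. COL1a and COL1b fell 4.86-fold and 6.68-fold at 8 h relative to 0 h, and COL2a and COL2b rose 5.69-fold and 7.86-fold, as averages of both lines (edgeR quasi-likelihood test, adjusted p = 2.20e-04, 1.78e-05, 0.00516 and 2.54e-04). Of all 38918 models tested, 3.93% passed in that comparison. The 4 genes were chosen with earlier results of these data known, so shares of all models are given as background only. In whole leaves, fewer cells with a transcript and less of it per cell cannot be told apart. At 24 and 48 h none of the 4 differed from 0 h at the threshold of 0.05, where 0% and 0.0257% of all models did. Averaged over time, none of the 4 passed between BC and W, where 0.213% of all models did.

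Levels are given as CPM, counts scaled to a common number of reads in gene models, after adjustment of library sizes by TMM. They are not per transcript length, so they compare samples for 1 gene and not 1 gene with another. Libraries held between 7558768 and 38227436 reads in gene models. COL1a and COL1b had 28724 and 66627 reads over the 20 libraries, against 297 and 368 reads for COL2a and COL2b, so single COL2 values rest on few reads. Replicate 2 of the BC 0 h group stood apart, with a mean correlation of 0.893 with the other libraries, where the next lowest, BC 8 h replicate 2, had 0.906. The same BC 0 h library had the fewest reads in gene models, 7558768, and the largest share of reads in rows that name no gene, 9.32%. The 8 h result is also given without it, and calls that end without it are named.

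COL1b was at 286 and 202 CPM in BC at 0 h, and at 198 and 170 CPM in W at 0 h. At 4 h COL1b stood at 73.5 and 84.9 CPM in BC and at 104 and 106 CPM in W. All 4 libraries at 4 h were below all 4 at 0 h. At 8 h its libraries held 48.4 and 23.3 CPM in BC and 28.4 and 27.7 CPM in W, below every library of every other time. How many of all models separated in this way, at 4 h or at 8 h, was not counted. By 24 h COL1b was at 217.5 and 295 CPM in BC and at 262 and 356 CPM in W. At 48 h it had 199.6 and 156 CPM in BC, and 388 and 303 CPM in W. The libraries of both days overlapped those of 0 h.

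COL1a also had its lowest level at 8 h. Its level at 0 h was 106 and 118 CPM in BC and 102 and 48.0 CPM in W, so the W replicates lay far apart. For 4 h COL1a values were 35.9 and 44.0 CPM in BC, and 50.2 and 44.6 CPM in W. At 8 h COL1a reached 27.7 and 12.2 CPM in BC and 18.7 and 17.1 CPM in W. As for COL1b, these 4 libraries lay below all others. It was back at 115 and 129.9 CPM in BC and 104 and 129.9 CPM in W at 24 h. At 48 h COL1a had 91.7 and 63.9 CPM in BC, against 163 and 116 CPM in W. The 48 h libraries of the lines did not overlap, and BC was lower, but the difference did not pass (edgeR adjusted p = 0.549). Within W the libraries of 24 and 48 h lay above those of 0 h, and within BC those of 48 h lay below. None of these changes passed within a line either.

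COL2b, by contrast, had its highest level at 8 h. Before infestation it was at 0.727 and 0.286 CPM in BC (10 and 2 reads) and at 0.269 and 0.419 CPM in W (7 and 15 reads). COL2b at 4 h had 0.733 and 0.723 CPM in BC (12 and 7 reads), and 0.662 and 0.384 CPM in W (15 and 11 reads). At 8 h COL2b rose to 5.05 and 2.63 CPM in BC (80 and 59 reads), and to 3.40 and 2.94 CPM in W (31 and 48 reads). These 4 libraries lay above the 16 others, and the share of all models that separated in this way was not counted. At 24 h it was at 0.730 and 0.597 CPM in BC (21 and 24 reads) and at 0.182 and 0.292 CPM in W (3 and 6 reads). Its 48 h libraries held 0.312 and 0.758 CPM in BC (4 and 6 reads) and 0.408 and 0.258 CPM in W (5 and 2 reads). Apart from 8 h, every library of COL2b stayed below 1 CPM.

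COL2a peaked at the same time. At 0 h it was at 0.509 and 0.857 CPM in BC (7 and 6 reads) and at 0.308 and 0.307 CPM in W (8 and 11 reads). COL2a at 4 h had 0.244 and 0.310 CPM in BC (4 and 3 reads), and 0.397 and 0.244 CPM in W (9 and 7 reads). At 8 h COL2a was at 3.22 and 1.69 CPM in BC (51 and 38 reads) and at 2.20 and 3.25 CPM in W (20 and 53 reads). No library of another time reached the lowest of these. By 24 h it had returned to 0.834 and 0.572 CPM in BC (24 and 23 reads) and to 0.729 and 0.292 CPM in W (12 and 6 reads). At 48 h COL2a had 0.390 and 0.126 CPM in BC (5 and 1 reads), and 0.163 and 0.905 CPM in W (2 and 7 reads). With 1 to 24 reads per library outside 8 h, order among those groups is not resolved.

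**Figure D1:**
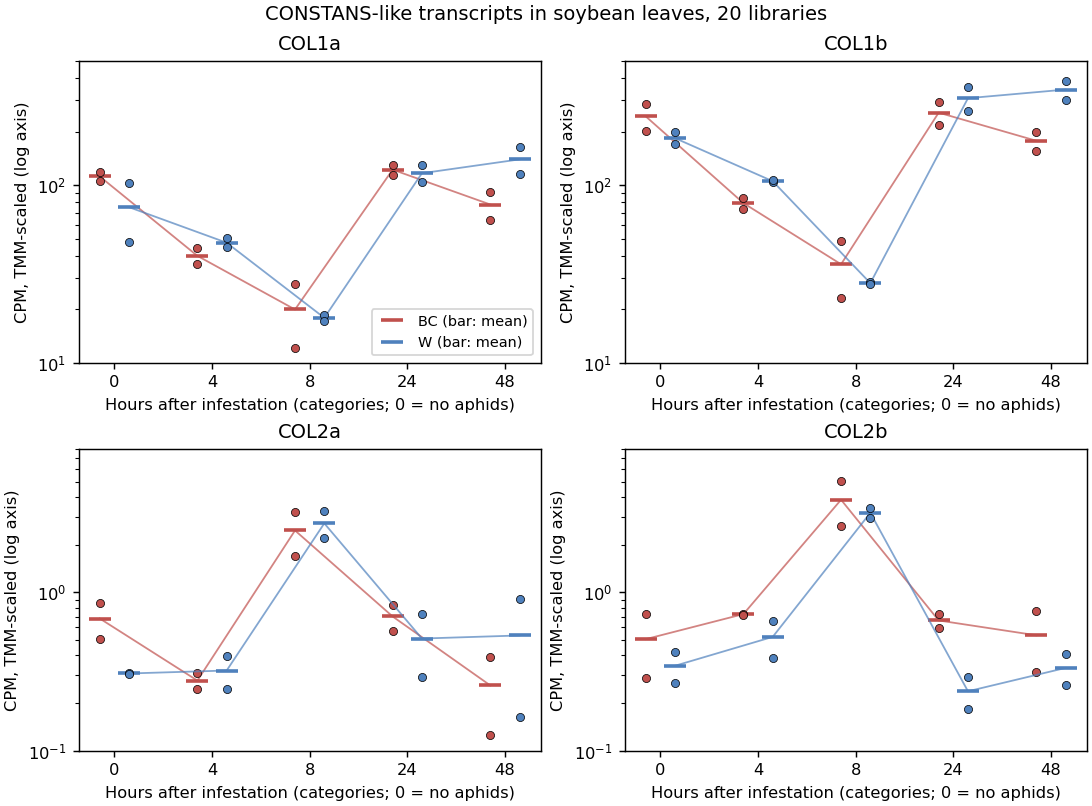
Level of COL1a, COL1b, COL2a and COL2b (CPM after TMM scaling, log axis) against hours after infestation, shown as evenly spaced categories. Points are libraries, bars are means of 2, BC in red and W in blue. At 8 h both COL1 copies are at their lowest, 12.2 to 48.4 CPM, and both COL2 copies at their highest, 1.69 to 5.05 CPM.

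Ranked by mean over the 10 groups of line and time, COL1b was highest in W at 48 h, with 345 ± 60.3 CPM, and lowest in W at 8 h, with 28.0 ± 0.547 CPM (SD, n = 2 each), a ratio of 12.3. Below the 0 h, 24 h and 48 h groups, its 4 lowest groups were W at 4 h, BC at 4 h, BC at 8 h and W at 8 h, of which only the last pair overlapped. COL1a spanned a ratio of 7.81, between 139.7 ± 33.5 CPM in W at 48 h and 17.9 ± 1.10 CPM in W at 8 h, with the same 4 groups lowest in the same order. The highest groups of both genes were not resolved: neighbours in the order overlapped at 6 of 9 steps for COL1a and at 5 of 9 for COL1b. COL2a spanned a ratio of 10.5 and COL2b of 16.2. In each of them 1 of the 9 steps did not overlap, the one between the 8 h groups and the next group down. The groups were sorted by mean first, and the share of all models with such gaps was not counted. A gap between neighbours with n = 2 each is therefore not read as a difference.

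The first comparison was each later time against 0 h, with both lines averaged and 4 libraries on each side. At 8 h COL1b stood at -2.74 on the log2 scale (standard error 0.25, 95% interval -3.27 to -2.21). COL1a changed by -2.28 with a standard error of 0.28 on that scale, COL2a by 2.51 with 0.46 and COL2b by 2.98 with 0.37. The median over all models tested was -0.01. COL2a and COL2b exceeded the CPM minimum of the filter on low counts in all 4 libraries at 8 h, and in 4 and 5 of the other 16. The share of models called depended on BC 0 h replicate 1: without it, with replicate 2 alone in its group and assumed to vary like the other groups, edgeR called 5575 models at 8 h in place of 1528. Without W 8 h replicate 2 or W 0 h replicate 2 it called 804 and 905. Ordered by p-value among the 38918 models, COL1b ranked 51 and COL2a, with the largest p of the 4, ranked 558. The genes were chosen with earlier results of these data known, so the ranks are a description only. The 4 calls held in the edgeR fits that left out each library in turn. Without BC 0 h replicate 2 the adjusted p-values were 0.00105 for COL1a, 4.31e-05 for COL1b, 0.0141 for COL2a and 0.00148 for COL2b. In limma voom with library weights COL2a lost its call (log2 fold change 2.44, adjusted p = 0.0863).

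At 4 h COL1b had already fallen, by 1.21 on the log2 scale (standard error 0.24, edgeR adjusted p = 0.0168), and 1.64% of all models passed. The call ended without either W 0 h replicate, either W 4 h replicate or BC 4 h replicate 1, with adjusted p-values up to 0.0860. COL1a was at -1.08 on the log2 scale at 4 h (standard error 0.27), which did not pass (edgeR adjusted p = 0.0646) but did so in DESeq2 (adjusted p = 0.00513) and without the filter on low counts (0.0384). It also passed without W 0 h replicate 2, BC 0 h replicate 1 or either BC 8 h replicate, with adjusted p-values between 0.0299 and 0.0398. COL2a and COL2b were at -0.60 and 0.49 at 4 h and did not pass, with 95% intervals of -1.73 to 0.52 and -0.35 to 1.33. Without BC 0 h replicate 1 edgeR called 5274 models at 4 h, against 640 with it, and without W 0 h replicate 2 it called 228. It called 310 to 411 without BC 4 h replicate 1, BC 0 h replicate 2 or either W 4 h replicate.

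At 24 h the log2 fold changes from 0 h were 0.38 for COL1a, 0.41 for COL1b, 0.39 for COL2a and -0.12 for COL2b. Here edgeR called 0 of the 4 and 0% of all models, DESeq2 called 0 of the 4 and 131 models, limma voom called 0 models, and 3498 models, 0 of them COL genes, had an unadjusted p below 0.05 in edgeR. At 48 h they were 0.19, 0.23, -0.28 and -0.06, again with 0 of the 4 called by edgeR, DESeq2 or limma voom and 0 at an unadjusted p below 0.05, and 0.0257% of all models called by edgeR. Without BC 0 h replicate 1 edgeR called 2816 models at 24 h and 4496 at 48 h, with 0 of the 4 at either time. The 95% intervals were widest for COL2a, -0.62 to 1.405 at 24 h and -1.47 to 0.91 at 48 h.

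**Figure D2:**
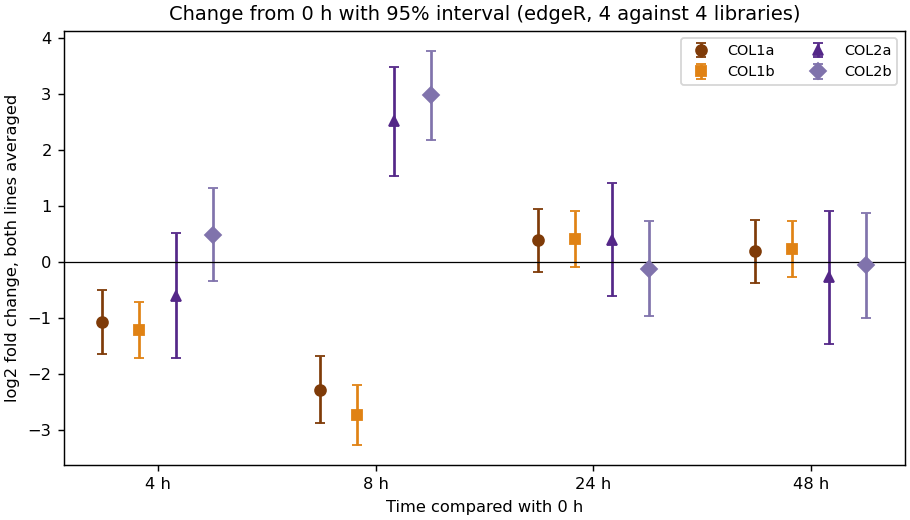
Change from 0 h (log2 fold change, both lines averaged, 4 against 4 libraries) of the 4 genes at each later time, with 95% intervals. At 8 h the COL1 copies lie at -2.28 and -2.74 and the COL2 copies at 2.51 and 2.98, and at 24 and 48 h each interval spans 0.

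Steps between successive times gave the same picture in more detail. These comparisons share libraries with each other and with those against 0 h, so they are not independent. Between 4 and 8 h all 4 genes passed, where 1.41% of all models did: COL1a at -1.21, COL1b at -1.53, COL2a at 3.11 and COL2b at 2.49 on the log2 scale (edgeR adjusted p = 0.0419, 0.00359, 0.00326 and 0.00199). COL1a was near the threshold and lost this call in 17 of the 20 fits with 1 library left out, with adjusted p-values up to 0.213. Of all models edgeR called 550 in this step, and 256 to 344 without W 8 h replicate 2, BC 8 h replicate 2 or W 4 h replicate 1. COL1a kept the call without BC 8 h replicate 1, W 0 h replicate 1 or W 0 h replicate 2. From 8 to 24 h the signs turned, to 2.66, 3.15, -2.12 and -3.10 in the same order, and all 4 passed, where 4.24% of all models did (edgeR adjusted p = 5.82e-05, 6.04e-06, 0.0111 and 1.57e-04). COL2a lost that call without W 8 h replicate 2, W 24 h replicate 2 or BC 24 h replicate 2, with adjusted p-values of 0.0621 to 0.0646. Without either W 8 h replicate or replicate 2 of W or BC at 24 h, 887 to 1049 models were called, against 1651 with all libraries. From 24 to 48 h the values were -0.20, -0.18, -0.67 and 0.06. In that step edgeR called 0 of the 4 and 0% of all models, DESeq2 and limma voom called 56 and 3 models and 0 of the 4, and 2539 models but 0 of the 4 had an unadjusted p below 0.05 in edgeR.

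Since 0, 24 and 48 h are whole days apart, 4 h and 8 h were also set against the mean of these 3 times. At 8 h COL1a and COL1b were 5.55-fold and 7.74-fold lower than that mean and COL2a and COL2b 5.54-fold and 8.21-fold higher (edgeR adjusted p = 2.36e-05, 1.70e-06, 2.63e-04 and 4.74e-06), and 7.1% of all models passed. All 4 passed in each of the 26 other fits. Without W 8 h replicate 1 or 2 edgeR called 1617 and 1370 models, against 2762 with all libraries. At 4 h COL1a was 2.40-fold and COL1b 2.69-fold lower than the mean (edgeR adjusted p = 0.00724 and 0.00114), where 3.51% of all models passed. COL1a lost that call without BC 4 h replicate 1 (adjusted p = 0.0587). Over all models 1366 were called at 4 h, 2447 without BC 0 h replicate 1, and 622 to 785 without BC 4 h replicate 1 or either W 4 h replicate. COL2a and COL2b were at -0.64 and 0.55 on the log2 scale and did not pass.

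A joint test of any change over time, with both lines averaged, was passed by all 4 genes and by 5.33% of all models. That share was 2073 models, against 6782 without BC 0 h replicate 1, 1300 without W 8 h replicate 2, 1375 without BC 48 h replicate 1, 4870 in DESeq2 and 654 in limma voom. The edgeR adjusted p-values were 2.21e-04 for COL1a, 1.87e-05 for COL1b, 0.00149 for COL2a and 8.34e-05 for COL2b. COL2a lost the call in limma voom (adjusted p = 0.101). Within W alone all 4 passed, where 2.65% of all models did, and within BC alone 3 did, where 1.6% of all models did. The exception in BC was COL2a, with an edgeR adjusted p of 0.0602, which was 0.00108 in DESeq2 and 0.0200 without BC 0 h replicate 1. Those fits called more models in BC as well, 3451 in DESeq2 and 6345 without that library, against 622. Leaving out 1 of the BC 8, 24 or 48 h libraries gave 224 to 412, leaving out BC 4 h replicate 2 gave 1111, and limma voom called 8. In W 1031 models were called, 2931 in DESeq2, 2034 in limma voom, and 507 to 672 without either W 8 h replicate, W 48 h replicate 1 or W 0 h replicate 2. COL2a also passed in BC with library totals only, without the filter on low counts, and without either W 48 h replicate, with adjusted p-values of 0.0267 to 0.0416. In BC COL1a lost its call without BC 8 h replicate 2 (0.0515) and COL2b without BC 8 h replicate 1 (0.130). In W COL1a lost it without W 8 h replicate 2 (0.0529), and COL2a without W 0 h replicate 2, W 4 h replicate 2 or either W 8 h replicate, with adjusted p-values of 0.0527 to 0.279. In limma voom with library weights none of the 4 passed in BC, with adjusted p-values between 0.0794 and 1.00 for COL1a, COL1b and COL2b, the 3 genes called by edgeR.

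Within each line, 8 h was again the time that stood apart. In BC COL1a fell by 2.49 and COL1b by 2.77 on the log2 scale at 8 h relative to 0 h, and COL2b rose by 2.79 (edgeR adjusted p = 0.00434, 9.98e-04 and 0.0137). COL2a was at 1.89 with a standard error of 0.66 and did not pass (edgeR adjusted p = 0.112), but did so with library totals only (0.0470). In W all 4 passed, at -2.07, -2.71, 3.13 and 3.16 for COL1a, COL1b, COL2a and COL2b (edgeR adjusted p = 0.0154, 0.00114, 0.0239 and 0.00503). The shares of all models called were 3.55% in BC and 1.53% in W. They moved with single libraries and with the tool, so the lines are not compared by them. In BC 1381 models were called, but 8369 without BC 0 h replicate 1, 371 without BC 0 h replicate 2 and 236 without BC 8 h replicate 2, and between 700 and 2103 in the other fits with 1 library left out that moved the count by over 1.5 times. DESeq2 called 3841 in BC, limma voom 41, and edgeR with library totals only 3271. In W 594 were called, 151 to 261 without any 1 of the W 0 h or 8 h replicates, 1205 in DESeq2 and 1121 in limma voom. With 1 library left out of a comparison of 2 against 2, COL1b kept its call in each fit of both lines. In W COL1a lost it without W 0 h replicate 1 or either W 8 h replicate, COL2a without any 1 of the W 0 h or 8 h replicates, and COL2b without either W 0 h replicate, with adjusted p-values up to 0.221. In BC COL1a lost it without BC 8 h replicate 2 (0.0626) and COL2b without BC 0 h replicate 2 (0.101) or BC 8 h replicate 1 (0.0596). COL1a and COL2b also lost it in BC in limma voom, with adjusted p-values of 0.105 and 0.602.

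At the other times none of the 4 genes passed within a line. At 4 h COL1a and COL1b were at -1.49 and -1.62 in BC (edgeR adjusted p = 0.102 and 0.0718) and at -0.67 and -0.81 in W (0.715 and 0.496), where 0.0822% and 0.794% of all models passed in BC and W. Both BC values passed in DESeq2 (adjusted p = 0.00930 for COL1a and 2.19e-04 for COL1b) and, without BC 0 h replicate 1, in edgeR (0.0302 and 0.0239). In BC at 4 h those fits also called many more models, 1895 of 38918 in DESeq2 and 8329 of 40320 without BC 0 h replicate 1, against 32 with all libraries. The count was 903 without BC 4 h replicate 2, and 0 in limma voom and without BC 4 h replicate 1 or BC 0 h replicate 2. In W it was 309 with all libraries, 27 to 139 without any 1 of the W 0 h or 4 h replicates, 730 in DESeq2 and 530 in limma voom. At 24 h 0% of all models passed in BC and 0% in W, with 6831 and 1504 at an unadjusted p below 0.05, of which 1 was a COL gene, COL1b in W (edgeR adjusted p = 1.00). DESeq2 called 768 and 58 models and limma voom 0 and 6, with 0 of the 4 in either line. Without BC 0 h replicate 1 edgeR called 8224 models in BC at 24 h and 7214 at 48 h, with 0 of the 4 at either time. At 48 h COL1a was at -0.52 in BC and 0.90 in W, and COL1b at -0.46 in BC and 0.91 in W. Neither gene passed in either line (edgeR adjusted p = 0.564, 0.345, 0.565 and 0.281 in that order), and 0% of all models passed in BC and 0.0771% in W. The W share was 30 models, 0 without either W 48 h replicate or W 0 h replicate 2, 92 without either W 8 h replicate, 479 in DESeq2 and 93 in limma voom. In BC 4960 models, 0 of the 4 among them, had an unadjusted p below 0.05 at 48 h, and DESeq2 called 242 models, limma voom 0 models and neither any of the 4. In W the unadjusted p at 48 h was 0.0321 for COL1a and 0.0154 for COL1b, the only such values below 0.05 among the 4.

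The second comparison was BC against W. Over the 10 libraries of each line the mean CPM (± SD, n = 10 per line) of COL1a was 74.4 ± 42.8 in BC, against 79.4 ± 50.2 in W, a spread that includes the differences between times. That of COL1b was 159 ± 97.1 in BC, against 194 ± 129.9 in W, that of COL2a 0.875 ± 0.937 in BC, against 0.879 ± 1.03 in W, and that of COL2b 1.25 ± 1.49 in BC, against 0.922 ± 1.20 in W. With time in the model the log2 fold changes were -0.06, -0.18, 0.08 and 0.68 for COL1a, COL1b, COL2a and COL2b. Of the 4, edgeR, DESeq2 and limma each called 0, and 0.213% of all models passed in edgeR (83 models, against 519 without BC 0 h replicate 1 and 143 without W 8 h replicate 1). The 95% intervals were -0.42 to 0.30 for COL1a, -0.49 to 0.14 for COL1b and -0.61 to 0.77 for COL2a. COL2b had an unadjusted p of 0.0180 (95% interval 0.13 to 1.22) and the only one below 0.05, which became 0.491 after adjustment over all models in edgeR. Its mean was higher in BC at each of the 5 times, and its libraries did not overlap at 4 and 24 h. The share of all models without overlap at a single time was not counted.

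At single times, with 2 libraries per line, edgeR called none of the 4 genes between BC and W, nor did DESeq2 or limma voom. Of all models, edgeR called 0.018% at 0 h, then 0.0308% at 4 h, 0.0257% at 8 h and 0.0308% at 24 h, and finally 0.0154% at 48 h. At 0 h that was 7 models, against 7785 of 40320 without BC 0 h replicate 1, 211 in DESeq2 and 1 in limma voom, with 0 of the 4 genes in each. At the other times it was 6 to 12 models, 0 to 37 with 1 library left out and 23 to 146 in DESeq2. The COL1 pair was higher in BC at 0 h without overlap, by 0.58 for COL1a and 0.41 for COL1b on the log2 scale, and lower in BC without overlap at 4 h (-0.25 and -0.41) and at 48 h (-0.84 and -0.96). COL2a was also higher in BC at 0 h without overlap, by 1.08 on the log2 scale (95% interval -0.44 to 2.59), on 6 to 11 reads per library. With 2 libraries per line, a lack of overlap arises often where lines do not differ. Its share over all models was not counted, so it is not read as a line difference. The unadjusted p-values at 48 h were 0.0419 for COL1a and 0.0117 for COL1b, and their edgeR adjusted p-values were 0.549 and 0.478. COL2b at 24 h was 2.70-fold higher in BC, with an unadjusted p of 0.0231 and an edgeR adjusted p of 1.00. These 3 were the only single-time values with an unadjusted p below 0.05.

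**Figure D3:**
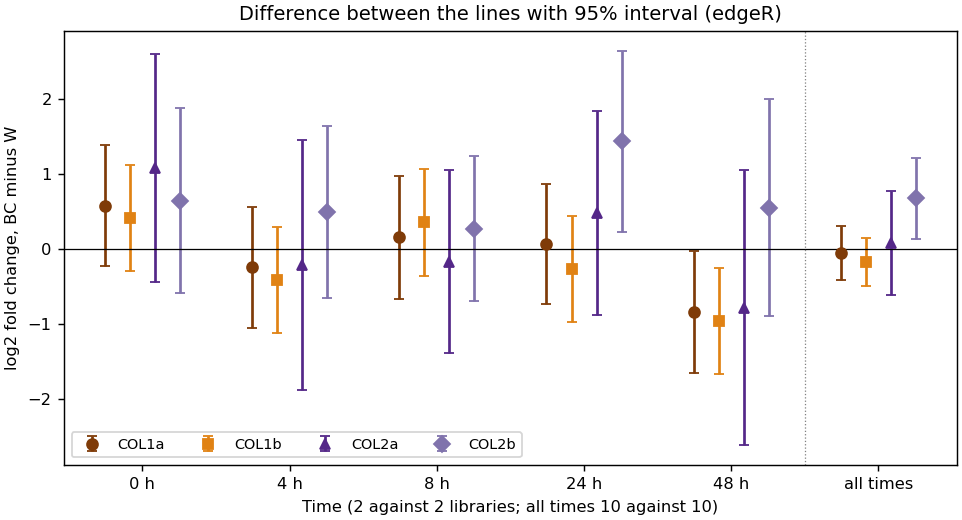
Difference between the lines (log2 fold change, BC minus W) of the 4 genes at each time (2 against 2 libraries) and over all times (10 against 10), with 95% intervals. COL1a and COL1b lie at 0.58 and 0.41 at 0 h and at -0.84 and -0.96 at 48 h, and COL2b lies above 0 at each time.

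Whether the course over time differed between BC and W was tested jointly over the 4 later times. The edgeR adjusted p was 0.614 for COL1a, 0.597 for COL1b, 0.749 for COL2a and 0.811 for COL2b. Here 0 of the 4 genes and 0% of all models passed, 3121 models but 0 of the 4 had an unadjusted p below 0.05 (COL1b came closest, at 0.0567), and DESeq2 called 145 models and limma voom 0, with 0 of the 4 in either. Without BC 0 h replicate 1 edgeR called 1801 models and again 0 of the 4. A call at 8 h in 1 line and not the other, as for COL2a, was therefore not shown to be a difference between the lines.

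The copies of each pair were also compared within a library, where no scaling enters. COL1a took 37.1 ± 2.31% of the reads of the COL1 pair at 8 h (SD, n = 4), against 30.0 ± 6.73% at 0 h. Its share was 32.3 ± 1.95% at 4 h, and on the later days 30.1 ± 3.38% (24 h) and 29.5 ± 1.56% (48 h). The replicates at 0 h were the farthest apart. In BC they were at 27.0% (exact 95% binomial interval 25.8 to 28.2) and 36.9% (34.9 to 38.9), and in W at 34.0% (33.0 to 35.1) and 22.1% (21.1 to 23.0). The share at 8 h overlapped that at 0 h, and a change of the ratio over time did not pass (permutation test with 100000 draws of time within line, p = 0.0620, adjusted over 4 tests p = 0.248). Without BC 0 h replicate 2 the adjusted p was 0.0445. Between the lines the mean log2 ratio of COL1a to COL1b was 0.14 higher in BC, also short of the threshold (-1.04 in BC and -1.18 in W, exact permutation test within times, two-sided, p = 0.248, adjusted p = 0.266).

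COL2a took 42.5 ± 6.69% of the reads of the COL2 pair at 8 h (SD, n = 4), with 51 to 131 reads per library for the pair. In the other libraries the share ran from 14.3%, on 7 reads, to 80.0%, on 15 reads. Neither time nor line passed for the ratio of COL2a to COL2b (permutation tests, p = 0.265 over time and p = 0.266 between lines, adjusted p = 0.266 for both). The mean log2 ratio was -0.47 in BC and 0.02 in W. Intervals of these shares cover counting error only, and the deposited row for reads without a unique position is 0 in every library, so how reads that fit both copies were counted is unknown and shares between copies are uncertain.

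**Figure D4:**
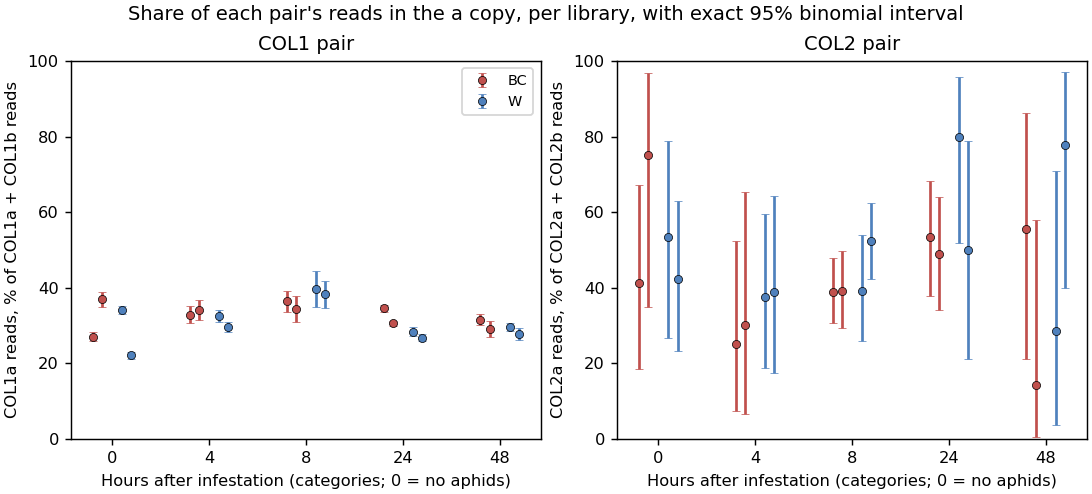
Share of each pair's reads in the a copy (percent, linear axis from 0 to 100) in every library, with exact 95% binomial intervals for counting error, BC in red left of W in blue. COL1a lies between 22.1% and 39.6% of its pair, and the COL2 intervals outside 8 h are wide because they rest on 7 to 47 reads.

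Over the 20 libraries log2 CPM of COL1a and COL1b had a Pearson r of 0.979 and a Spearman rho of 0.968, given as a description because libraries share time and line. Their replicate differences also went together, with r = 0.771 over the 10 groups and the same sign in 8 of them. How reads that fit both copies were counted is unknown, so how far shared reads enter the values within a pair is not known. COL2a and COL2b had r = 0.723 and rho = 0.305 over the 20 libraries. Without the 2 libraries farthest from the median of COL2a, both of them from 8 h, r was 0.509. Replicate differences of COL2a and COL2b had r = -0.360, with the same sign in 3 of 10 groups, at read numbers where counting error is large. Across the pairs r was negative, between -0.552 for COL1a with COL2a and -0.843 for COL1b with COL2b. The ranks were less alike, with rho = -0.305 for COL1a with COL2a, -0.320 for COL1b with COL2a, -0.671 for COL1a with COL2b and -0.698 for COL1b with COL2b. The 2 libraries farthest from the median were from 8 h for COL1a and for COL1b as well. Without them r was -0.338 for COL1a with COL2a and -0.777 for COL1b with COL2b. The other libraries of 8 h stayed in each time, so these r still hold the shift at 8 h. Replicate differences across the pairs had r = 0.085 for COL1a with COL2a, 0.084 for COL1a with COL2b, -0.085 for COL1b with COL2a and 0.426 for COL1b with COL2b. At 8 h in BC replicate 1 was above replicate 2 in all 4 genes, by at most 1.18 on the log2 scale (COL1a). This replicate 2 had the highest TMM factor of the 20 libraries, 1.27, and whether that bears on the gap was not tested.

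Among the models whose course was most like that of a member, by Pearson r of mean log2 CPM over the 10 groups, COL1a and COL1b were each other's nearest of 31148 candidates (r = 0.994). Next for both came Glyma06g20950.1 (r = 0.991 with each), at 9.65 CPM at 8 h and 36.2 CPM at 0 h. In the third place were Glyma14g35020.1 for COL1a (r = 0.982) and Glyma08g39510.1 for COL1b (r = 0.987). These 2 went from 70.1 to 36.4 CPM and from 9.46 to 3.33 CPM between 0 h and 8 h. Their r over the 20 libraries was 0.944 and 0.965. Many models were alike: 64 had r above 0.95 with COL1a and 66 with COL1b, against 3 with COL2a and 25 with COL2b. The unknown counting of reads that fit both copies also limits the r of COL1a with COL1b. COL2b was most like Glyma08g45150.1 (r = 0.993), which was at 195 CPM at 8 h and 9.75 CPM at 0 h, then Glyma13g42390.1 (r = 0.988) and Glyma14g09120.1 (r = 0.985). Of these, Glyma13g42390.1 changed less, from 28.5 CPM at 0 h to 43.8 CPM at 8 h, and Glyma14g09120.1 went from 0.513 to 19.9 CPM. Over the 20 libraries r was 0.908, 0.783 and 0.908 in that order. Nearest to COL2a were Glyma06g21140.1 (r = 0.974), Glyma08g22370.1 (r = 0.965) and Glyma09g37800.1 (r = 0.957). From 0 h to 8 h they went from 11.65 to 16.5 CPM, from 7.36 to 33.4 CPM and from 40.2 to 55.1 CPM. Over the 20 libraries their r was 0.837, 0.901 and 0.710. A high r does not mean a change of similar size. COL2a and COL2b had average log2 CPM of -0.052 and 0.237, below the minimum of 1 for candidates, so neither could be named for the other. With both added to the candidates, COL2b ranked 45 of 31150 by likeness to COL2a. At such low read numbers this rank is not compared with that of the COL1 pair. Over the 20 libraries instead of the 10 means, 2 of the 3 nearest were the same for COL1a, 1 for COL1b, 1 for COL2a and 0 for COL2b.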

How the data were processed

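Leaf RNA was sequenced in 20 libraries. Cuffdiff 1.3.0, edgeR, TopHat 1.4.1 and HTSeq 0.5.3 are named in the submitters' processing notes, with no role. Neither strandedness in counting nor the genome build or gene set version is given in the sources used here. Raw read counts per gene model were deposited by the authors, 1 column per library, and each column was assigned to a line and time by its name. Rows that name no gene held 4.55% to 9.32% of the reads of a library and were left out. The 4 genes and the lists were chosen with earlier results of these data known.

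Counts were fitted in R 4.3.3 with edgeR 4.0.16 (TMM, filterByExpr by group with a minimum count of 10, robust quasi-likelihood fit), in 1 model of 10 groups with 10 residual degrees of freedom, and p-values were adjusted by Benjamini-Hochberg over 38918 models (threshold 0.05, two-sided). All 4 genes passed the filter. COL1a and COL1b exceeded its CPM minimum of 0.646 in 20 libraries each. COL2a did so in 8 and COL2b in 9, of which 4 each were from 8 h. Level values are CPM. Standard errors are the absolute log2 fold change divided by the square root of the F statistic of the edgeR test. The 95% intervals were built from them with a t quantile. In some COL2b comparisons the p-value was larger than F alone gives, so those intervals are narrower than the test. Alternatives were RLE size factors, library totals only, no filter, DESeq2 1.42.0, limma 3.58.1 voom with library weights, the replicate number as a block, and each library left out. Ratios within a pair used counts plus 0.5 and permutation tests in Python 3.11.15 with SciPy 1.17.1, and shares have exact Clopper-Pearson 95% intervals. The models named for likeness were the 3 per gene with the highest r of group means among models with an average log2 CPM of at least 1. The edgeR tests set differences between groups against the spread between replicate libraries. Whether replicates came from separate plants is not described, so how far the p-values extend to other plants is unknown.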

Additional observations from a re-analysis of the deposited data

Results flagged for a closer look

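Groups of 4 libraries at 1 time were searched for a library far from the other 3, in 30 groups, where chance gives about 1 in 20. For the share of COL2a in the reads of its pair, W replicate 2 at 8 h stood at 52.5%, on 101 reads, against 38.9% to 39.2% in the other 3 libraries. At 24 h W replicate 1 stood at 80.0%, on 15 reads, with an exact 95% binomial interval of 51.9 to 95.7%. The other 3 libraries at 24 h were at 48.9% to 53.3%. Whether counting error accounts for either value was not tested.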

How the results depend on the processing

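Calls of COL1a, COL1b and COL2b at 8 h against 0 h held under each alternative run. Limma voom ended the calls of COL2a at 8 h (2.435) and of COL1b at 4 h (-1.168, adjusted p = 0.130), and COL1a at 4 h passed without the filter (-1.069) and in DESeq2 (-1.085); the cause was not tested. Other signs that turned belonged to values that did not pass. With library totals only they were COL1a between BC and W over all times (0.042), COL2b at 48 h in BC (0.068), COL2a at 4 h in W (-0.063) and COL2a between BC and W at 8 h (0.079). COL2b at 48 h in W was 0.020 with RLE factors, 0.022 in DESeq2 and 0.090 in voom, and COL2a at 24 h in BC was -0.004 in voom.

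With each library left out in turn, the log2 change at 4 h against 0 h lay between -1.295 and -0.749 for COL1a, which passed in 4 of 20 fits, and between -1.328 and -1.072 for COL1b, which lost its call in 5. Values that changed sign had these ranges. Between BC and W over all times they were -0.203 to 0.068 for COL1a and -0.147 to 0.382 for COL2a. For both lines against 0 h they were -0.328 to 0.342 for COL2b at 24 h, and at 48 h -0.035 to 0.511 for COL1a, -1.047 to 0.166 for COL2a and -0.389 to 0.400 for COL2b. From 24 to 48 h COL2b ran between -0.280 and 0.347. Within BC against 0 h the ranges at 24 h were -0.158 to 0.354 for COL1b, -0.279 to 0.453 for COL2a and -0.136 to 1.205 for COL2b, and at 48 h -0.778 to 0.817 for COL2b. Within W against 0 h COL2a had -0.323 to 0.364 at 4 h, -0.069 to 1.227 at 24 h and -0.889 to 1.536 at 48 h, and COL2b had -0.422 to 0.346 at 48 h. Between BC and W at single times COL1a had -0.557 to 0.645 at 8 h and -0.089 to 0.241 at 24 h, and COL1b had -0.269 to 0.800 at 8 h. COL2a had -0.537 to 0.150 at 4 h, -0.699 to 0.240 at 8 h, -0.058 to 1.238 at 24 h and -1.894 to 0.753 at 48 h. COL2b had -0.294 to 1.046 at 0 h, -0.269 to 0.686 at 8 h and -0.141 to 1.124 at 48 h.

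Counts of calls over all models depended on the tool. At 8 h against 0 h edgeR called 1528 models, DESeq2 2549 and voom 585, and at 4 h 640, 1530 and 103. At 48 h they called 10, 137 and 0, and 21 were called in edgeR without the filter and 4 with the replicate block. Same-numbered libraries showed no deviation common to all groups (median r = -0.012 over 45 pairs of groups, range -0.478 to 0.498). In 15 of these pairs r was above 0.1, so whether the numbers pair some of the samples cannot be told. With the replicate number as a block the 8 h changes were -2.288, -2.744, 2.507 and 2.970 for COL1a, COL1b, COL2a and COL2b, and no call of a COL gene changed. Depth limits COL2a and COL2b, with 297 and 368 reads in all.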
